A study of Mus musculus with 55 samples.

Results

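The comparison described here set mouse livers that carried a hairpin RNA against Gls2 beside livers that carried a hairpin RNA against Glud1, both in wild type (WT) mice. Its members were the 10 libraries labelled WT sh-Gls2 and the 9 labelled WT sh-Glud1, found by strain and vector name in the table of counts, 19 of 55 libraries in all. Gls2 encodes the liver-type glutaminase, which releases ammonia from glutamine in the mitochondria of periportal hepatocytes. Glud1 encodes glutamate dehydrogenase, the mitochondrial enzyme that releases ammonia from glutamate. Both enzymes feed ammonia toward the urea cycle, in which Otc (ornithine transcarbamylase) makes citrulline. A short hairpin RNA is cut by Dicer into a small RNA that guides an Argonaute protein to matching transcripts, and the transcript is then broken down.

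WT mice were of the hybrid strain B6EiC3SnF1/J, and the other strain of the series, called OTC, carried the Otcspf-ash allele of the X-linked Otc gene. Adeno-associated virus (AAV), a viral vector that reaches the liver from a vein, was given intravenously at 4 months of age. It delivered the Gls2 hairpin, the Glud1 hairpin or a scrambled hairpin (control), to which mice were assigned at random. All groups, controls included, received a vector and were moved from chow to a diet with 40% protein at week 2. Livers were taken at week 5, and the labels give the mice as male and 5 months old. The labels name 1 vector for each target, so the effect of a target and that of other actions of its hairpin cannot be told apart. The promoter of the vectors, the share of hepatocytes they reached and the hairpin sequences are not given in the sources used here. Untreated livers and livers on chow were not analysed here. The question addressed is how livers that share strain, route, diet and vector type, but differ in the silenced enzyme, differ in messenger RNA.

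Each library came from a separate mouse. Total counts were 14489866 to 22001267 per library in WT sh-Gls2 livers and 15321137 to 21052417 in WT sh-Glud1 livers. No pair of libraries within either group was a repeat of the same library: the smallest chi-square per degree of freedom over 81 pairs was 11.1. On the first principal component of the 19 libraries, which held 29.3% of the variance, the sh-Gls2 livers lay at 8.33 or above and all sh-Glud1 livers below 0. Mouse 45 of the sh-Gls2 group lay nearest to the sh-Glud1 livers and farthest out on the second component, which held 10.5%. The tissue label held: 18 hepatocyte markers summed to 122700.0 to 169140.0 CPM (counts scaled to library size) in sh-Gls2 livers and 124430.0 to 153740.0 CPM in sh-Glud1 livers. These are bulk livers, so fewer cells of a type and less RNA per cell cannot be told apart. Levels below are CPM after scaling between libraries, and 3 levels in a row are the lowest, the median and the highest library of a group. Differences are log2 of sh-Gls2 over sh-Glud1 with their standard error, and "called" means an adjusted p below 0.05 in edgeR's quasi-likelihood test over 13311 genes.

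Each target was lowest in the livers that carried its hairpin. Gls2 (chromosome 10, 128194457 to 128210004, plus strand, GRCm38) was at 159, 198 and 255 CPM in sh-Gls2 livers, against 343, 433 and 579 CPM in sh-Glud1 livers. Its level was 2.12-fold lower in sh-Gls2 livers, a log2 difference of -1.09 ± 0.10 (adjusted p = 1.7e-12), and the highest sh-Gls2 liver lay under the lowest sh-Glud1 liver. The mean ± SD was 204 ± 30.01 CPM in sh-Gls2 livers (n = 10), 434 ± 69.1 CPM in sh-Glud1 livers (n = 9) and 441 ± 67.2 CPM in control livers (n = 10). Glud1 (chromosome 14, 34310727 to 34345265, plus strand) was at 793, 989 and 1165 CPM in sh-Gls2 livers and 254, 374 and 583 CPM in sh-Glud1 livers. That is 2.57-fold higher in sh-Gls2 livers, a log2 difference of 1.36 ± 0.12 (adjusted p = 3.71e-13), again without overlap. The mean ± SD was 991 ± 114 CPM in sh-Gls2 livers, 386 ± 123 CPM in sh-Glud1 livers and 1035 ± 104 CPM in control livers. Transcript of the target remained in every liver of both groups. Otc did not pass the test, with 521 ± 23.5 CPM in sh-Gls2 livers, 551 ± 35.3 CPM in sh-Glud1 livers and a log2 difference of -0.08 ± 0.08 (adjusted p = 0.471).

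The count table also has a row for eGFP, a fluorescent reporter that is no mouse gene, which was examined after its values were seen. It was at 5.80, 11.9 and 21.8 CPM in sh-Gls2 livers, 12.6, 31.7 and 59.02 CPM in sh-Glud1 livers and 18.5, 34.2 and 73.1 CPM in control livers. It fell in sh-Gls2 relative to sh-Glud1 livers, with a log2 difference of -1.44 ± 0.31 (adjusted p = 0.000235), although the ranges of the groups overlapped. The labels do not say which vectors carry this reporter, so whether its level follows vector dose was not tested. Within the sh-Gls2 group the reporter and Gls2 were not related past the threshold (Pearson r = -0.50, adjusted permutation p = 0.313; Spearman rho = -0.61, adjusted permutation p = 0.184; n = 10; r = -0.40 without the 2 mice farthest from the median of Gls2). In sh-Glud1 livers the same relation for Glud1 had r = 0.27 (adjusted p = 0.685) and rho = 0.05 (adjusted p = 0.912) by exact permutation (n = 9), and r = 0.51 without the 2 farthest mice. For Gls2 and eGFP in the 10 OTC sh-Gls2 livers, r was -0.57 (adjusted permutation p = 0.313) and rho -0.73 (adjusted permutation p = 0.0757). There r was -0.74 without the 2 farthest mice.

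**Figure D1:**
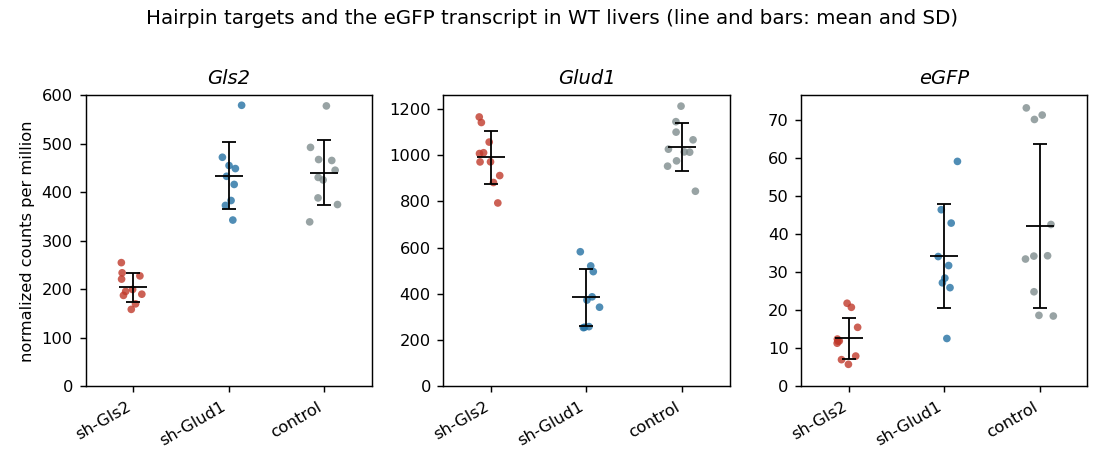
Gls2, Glud1 and eGFP in every WT liver, as normalized CPM; each point is 1 library, and the line and bars are the mean and SD of 10 sh-Gls2, 9 sh-Glud1 and 10 control livers. Gls2 is low in sh-Gls2 livers alone and Glud1 in sh-Glud1 livers alone, whereas eGFP ranges overlap.

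The 2 hairpin groups differed in 3946 of 13311 genes, 29.6% of those tested. Of these, 2062 were higher in sh-Gls2 livers (15.5% of tested genes) and 1884 lower (14.2%). Large changes ran mostly upward, with 361 called genes at least 2-fold higher (2.71%) against 84 at least 2-fold lower (0.631%). The ranges of the groups did not overlap for 467 genes that were higher (3.51%) and 355 that were lower (2.67%). The median over all tested genes was -0.0016. Beside the scrambled control, sh-Gls2 livers had 4638 called genes (34.8%), of which 2344 were higher and 2294 lower. WT sh-Glud1 livers had 3 (0.0225%), all lower. The shares of 15.5% higher and 14.2% lower are the background for the counts of every gene list that follows. Some genes belong to several lists, so the counts of different lists are not separate results. The comparisons between the hairpins and with control share livers, so they are given side by side only.

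The 3 genes called between sh-Glud1 and control livers were named after their values were seen. They were Glud1 (log2 -1.42 ± 0.12, adjusted p = 3.97e-12), Gm3219 and Zdhhc6. Gm3219 is annotated as a processed pseudogene at 34345281 to 34345583 on chromosome 14, directly after the end of Glud1, and its log2 difference of -1.18 ± 0.16 is uncertain because counting could assign it reads of Glud1. Zdhhc6, a palmitoyltransferase, differed from control by -0.20 ± 0.04 (adjusted p = 0.0328). At an unadjusted p below 0.05, 296 genes were higher and 401 lower in sh-Glud1 livers than in controls.

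**Figure D2:**
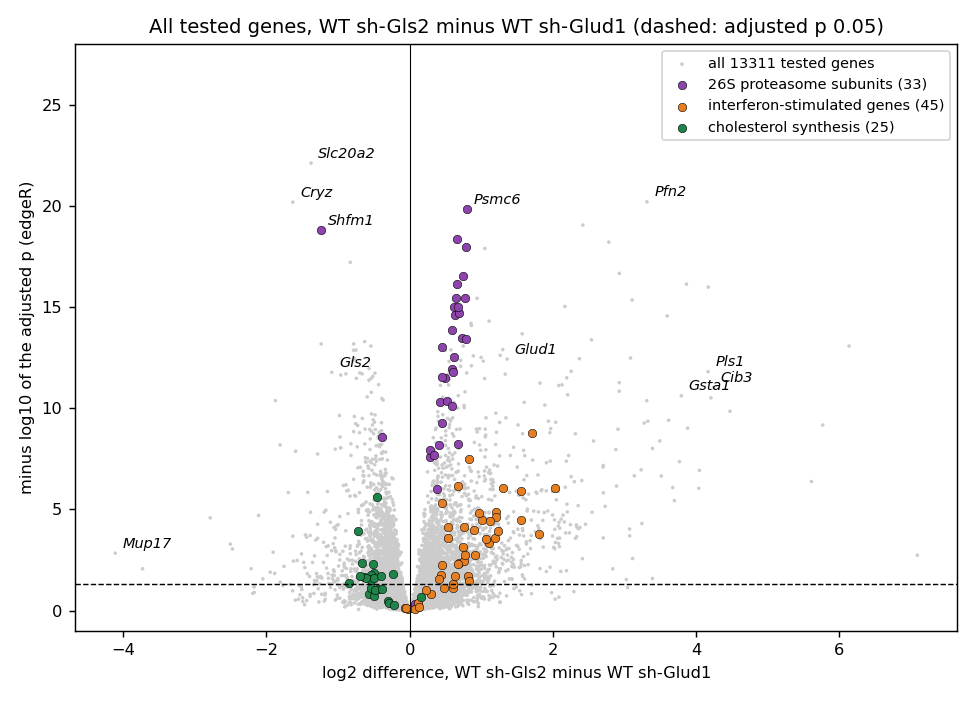
Each point is 1 of 13311 tested genes, with its log2 difference (WT sh-Gls2 minus WT sh-Glud1) on the x axis and minus log10 of the edgeR adjusted p on the y axis; coloured points are 33 proteasome subunits, 45 interferon-stimulated genes and 25 cholesterol synthesis genes. Proteasome subunits form a narrow column of small, precise increases with Shfm1 (-1.24) far to the left, interferon-stimulated genes spread to the right, and cholesterol genes sit to the left.

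The 8 largest increases, taken over called genes whose mean log2 CPM was 1 or more and whose name is not provisional, were all without overlap between the groups. Cib3, a calcium-binding protein, was at 10.1, 39.1 and 49.6 CPM in sh-Gls2 livers, against 0.332, 1.93 and 4.29 CPM in sh-Glud1 livers, 18.9-fold higher (log2 4.24 ± 0.42, adjusted p = 9.45e-12). Pls1, which encodes the actin bundler plastin 1, was at 17.7, 27.98 and 34.8 CPM, against 0.403, 1.32 and 4.48 CPM in sh-Glud1 livers (log2 4.17 ± 0.39, adjusted p = 1.56e-12). No sh-Glud1 liver reached the lowest sh-Gls2 liver for either gene. Mouse 56 of the sh-Glud1 group was the one with 4.48 CPM of Pls1. The other 6 of the 8 highest were Mtmr11, a myotubularin relative (log2 3.86), Gsta1, a glutathione transferase (3.79), Pfn2, an actin monomer binder (3.31), Slpi, a secreted protease inhibitor (3.31), Lrrc14b (3.11) and the interferon-induced Ifi27l2b (3.08). In control livers the means were 0.905 ± 0.773 CPM for Cib3 and 1.34 ± 0.783 CPM for Mtmr11.

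By the same choice of names, but with no minimum level, the 8 increases with the smallest p were Pfn2, Psmc6, Uap1l1, Psmb7, Mllt11, Psmb4, Slc22a18 and Ccdc120. Pfn2 was at 12.5, 16.7 and 23.5 CPM in sh-Gls2 livers, against 1.05, 1.84 and 2.35 CPM in sh-Glud1 livers (adjusted p = 6.37e-21). Uap1l1, related to the enzyme that makes UDP-N-acetylhexosamines, differed by 2.42 ± 0.14, Mllt11 by 2.78 ± 0.17, Ccdc120 by 2.93 ± 0.20 and the transporter gene Slc22a18 by 1.05 ± 0.07. Of these 8 genes, 3 encode proteasome subunits.

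The proteasome is the cell's protein-degrading machine. Its barrel-shaped core is built of alpha and beta rings and cuts proteins into peptides, and a regulatory cap with ATPases recognizes ubiquitin-tagged substrates and unfolds them. Its subunits were listed as a family only after Psmc6, Psmb7 and Psmb4 were seen among the smallest p values, so the counts below describe the family and do not test it. Of 33 subunit genes, 30 were higher in sh-Gls2 livers, 2 were lower and 1 was not called, beside 15.5% and 14.2% over all genes. The median difference was 0.59. Ranges did not overlap for 29 of the subunits that were higher and for both that were lower. The sum over all 33 genes was 3269 to 4224 CPM in sh-Gls2 livers, 2474 to 2690.3 CPM in sh-Glud1 livers and 2367 to 2754 CPM in control livers.

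All 7 alpha ring genes (median 0.45) and all 7 beta ring genes (median 0.66) were higher, as were all 6 cap ATPases (median 0.61). The other cap subunits were split, with 10 of 13 higher and 2 lower. Psmc6, an ATPase, was at 112, 134 and 164 CPM in sh-Gls2 livers, against 73.8, 77.2 and 82.8 CPM in sh-Glud1 livers (log2 0.80 ± 0.04, adjusted p = 1.43e-20). Psmb5, the catalytic subunit with chymotrypsin-like activity, was at 53.6, 71.8 and 96.5 CPM, against 39.7, 45.8 and 55.2 CPM in sh-Glud1 livers, and was the one subunit that was higher yet overlapped (log2 0.67 ± 0.08, adjusted p = 5.61e-09). The smallest increase was that of Psma3 (0.28 ± 0.04), and the deubiquitinase of the cap, Psmd14, was among the largest (0.79 ± 0.07). The ubiquitin receptor Adrm1 did not pass (0.08 ± 0.08, adjusted p = 0.491).

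Shfm1, also called Sem1, went the opposite way. It encodes the small acidic cap subunit that helps the lid assemble. It was at 11.2, 13.4 and 20.2 CPM in sh-Gls2 livers, against 30.98, 32.5 and 37.5 CPM in sh-Glud1 livers and 26.5, 31.9 and 35.2 CPM in controls. The log2 difference was -1.24 ± 0.07, 2.36-fold lower (adjusted p = 1.58e-19), and the groups were far apart. Psmd3, another lid subunit, was at 50.6, 56.5 and 66.4 CPM, against 67.97, 76.8 and 78.9 CPM in sh-Glud1 livers (log2 -0.39 ± 0.05, adjusted p = 2.67e-09). Between sh-Glud1 and control livers the median of the 33 subunits was 0.03. Across mice of the sh-Gls2 group, Shfm1 and the mean log2 level of the other subunits, without Psmd3, were not related past the threshold (r = -0.47, adjusted permutation p = 0.32; rho = -0.12, adjusted permutation p = 0.863; n = 10; r = 0.11 without the 2 mice farthest from the median of Shfm1).

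**Figure D3:**
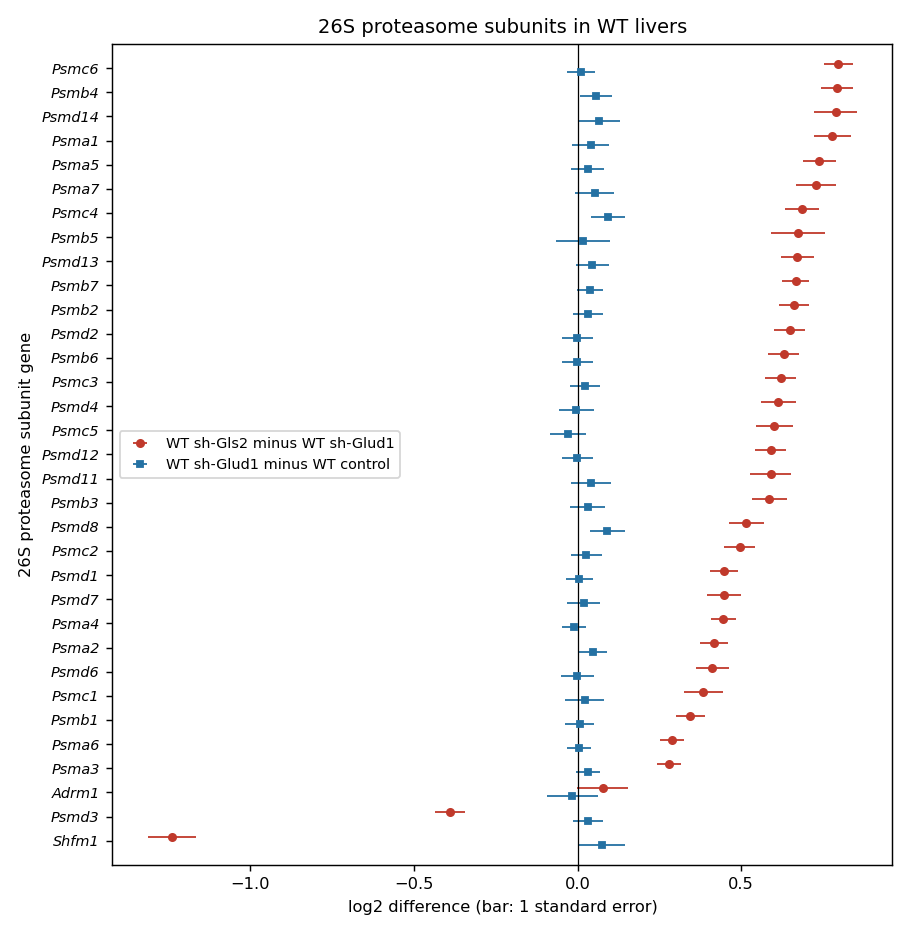
Log2 differences of 33 proteasome subunit genes with 1 standard error; circles are WT sh-Gls2 minus WT sh-Glud1 and squares are WT sh-Glud1 minus WT control. Circles of 30 subunits lie between 0.28 and 0.80 while Psmd3 and Shfm1 lie at -0.39 and -1.24, and squares stay near 0.

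Genes of proteasome assembly and partners, were also listed after the values were seen. Of 21, 8 were higher and 1 lower, with a median of 0.06. Pomp, which matures the core, was higher by 0.56, and Vcp, the segregase that hands substrates to the proteasome, by 0.54. Its cofactors Nploc4 and Ufd1l were higher by 0.54 and 0.46. Ddi2, the protease known for activating the proteasome transcription factor NRF1, was the 1 that was lower, by -0.29 on the log2 scale. Of 19 subunits of the vacuolar proton pump, a lysosomal complex listed in the same way, 10 were higher and 2 lower, with a median of 0.15.

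The promoter of Psmc6, the subunit with the smallest p, is printed from RefSeq because NRF2 and NRF1, which bind antioxidant response elements, are known to drive proteasome genes. It spans chr14:45329574-45329873 (GRCm38.p6, plus strand), 250 bases before to 50 after the start. Capitals mark the only match on either strand to TGACNNNGC, the core of the antioxidant response element, which reads on the minus strand and has its first base at -227 from the start.
Psmc6: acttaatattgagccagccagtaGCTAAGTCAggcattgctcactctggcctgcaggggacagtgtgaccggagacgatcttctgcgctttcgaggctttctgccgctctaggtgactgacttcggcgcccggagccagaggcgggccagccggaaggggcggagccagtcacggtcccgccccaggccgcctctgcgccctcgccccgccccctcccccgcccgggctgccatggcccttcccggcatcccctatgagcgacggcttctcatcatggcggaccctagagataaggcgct
Of 26 subunit genes with a promoter entry, 5 held this motif (19.2%), beside 14.8% of the promoters of tested genes and 12.5% of all 27025 promoters. The looser TGANNNNGC, which includes it, was in 14 of the 26 (53.8%), beside 4334 of the 10080 promoters of tested genes and 41.4% of all promoters. The 2 motifs were in 20.6% and 58.8% of the promoters of interferon-stimulated genes, and in 26.9% and 65.4% of those of NRF2 targets. The shares were thus no higher in the proteasome family than in these other lists. These matches describe letters only.

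The groups did not overlap for any of the 8 decreases with the smallest p among genes with such names, which follows largely from choosing them by p. Slc20a2, a sodium-phosphate importer on chromosome 8 (22476788 to 22569612, plus strand), had the smallest p of all 13311 genes. It was at 25.95, 32.8 and 44.1 CPM in sh-Gls2 livers, against 80.9, 90.8 and 102 CPM in sh-Glud1 livers (log2 -1.38 ± 0.07, adjusted p = 7.72e-23). Cryz, a quinone reductase on chromosome 3 (154596711 to 154623182, plus strand), was at 23.4, 31.96 and 46.1 CPM, against 82.99, 101 and 114 CPM in sh-Glud1 livers (log2 -1.63 ± 0.09, adjusted p = 6.58e-21). Both log2 differences were larger in size than that of Gls2 itself, the named target, though the differences between genes were not tested. Controls had 84.2 ± 4.56 CPM of Slc20a2 and 87.1 ± 11.8 CPM of Cryz. The remaining decreases with the smallest p were Shfm1, Gnai3 (an inhibitory G protein, -0.83), Rpn2 (an oligosaccharyltransferase subunit, -0.63), Lage3 (a tRNA-modifying KEOPS subunit, -1.24), Ctnna1 (alpha-catenin, -0.54) and Aggf1 (-0.75).

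Within the sh-Gls2 group, livers with more residual Gls2 also had more Cryz (Pearson r = 0.85, adjusted permutation p = 0.0235; Spearman rho = 0.93, adjusted permutation p = 0.00319; n = 10), and r was 0.87 without the 2 mice farthest from the median of Gls2. For Slc20a2 the relation was r = 0.74 (adjusted permutation p = 0.0899) and rho = 0.79 (adjusted permutation p = 0.0461), with r = 0.71 without those 2 mice. For Shfm1 it was r = 0.52 (adjusted permutation p = 0.313) and rho = 0.55 (adjusted permutation p = 0.229), with r = 0.79 without them. These were among 11 relations computed. In the 10 OTC sh-Gls2 livers the relation with Cryz had r = 0.42 (adjusted permutation p = 0.358) and rho = 0.43 (adjusted permutation p = 0.402), and r = 0.45 without the 2 farthest mice. There Slc20a2 had r = 0.00 (adjusted permutation p = 0.993) and rho = -0.10 (adjusted permutation p = 0.863), and r = 0.15 without 2 mice. Whether the relation differs between the strains was not tested.

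The 8 largest falls, chosen like the largest increases, included 4 major urinary protein genes, which encode pheromone carriers secreted by the liver. Mup17 was at 0, 13.98 and 114 CPM in sh-Gls2 livers, against 65.7, 323 and 1334 CPM in sh-Glud1 livers (log2 -4.11 ± 1.02, adjusted p = 0.00147), and the ranges overlapped. Mup9 differed by -3.73 ± 1.12 (adjusted p = 0.00862), Mup16 by -2.21 ± 0.66 and Mup5 by -2.05 ± 0.73 (adjusted p = 0.0272). These genes are near-identical copies whose reads counting can split, so single members are uncertain. Mup9 lost its call on log2(TPM + 0.1), at an adjusted p of 0.0526. Mup5 lost its call on both TPM scales, and without mouse 37 or mouse 40 of the sh-Glud1 group (adjusted p = 0.0692 and 0.0719).

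Hnf4aos, an antisense transcript of the hepatocyte regulator Hnf4a, was at 0.519, 0.908 and 1.38 CPM in sh-Gls2 livers, against 2.37, 3.23 and 4.74 CPM in sh-Glud1 livers (log2 -1.88 ± 0.19, adjusted p = 4.23e-11), without overlap. The libraries were strand-specific, but whether counting used the strand is not given in the sources used here. C4a, a complement gene with a close copy, differed by -1.76 ± 0.51 and Raet1e, a stress ligand of the NKG2D receptor from a multigene family, by -1.63 ± 0.34, both with overlap. Pnpla3, a lipid droplet hydrolase, was at 0.427, 1.24 and 20.3 CPM, against 0.806, 13.4 and 28.5 CPM in sh-Glud1 livers (log2 -1.81 ± 0.69, adjusted p = 0.0396). The 20.3 CPM of mouse 45 stood apart from the other sh-Gls2 livers. Its call was lost in 14 of the 19 fits that leave out 1 library, with adjusted p up to 0.0956 (without mouse 56 of the sh-Glud1 group).

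**Figure D4:**
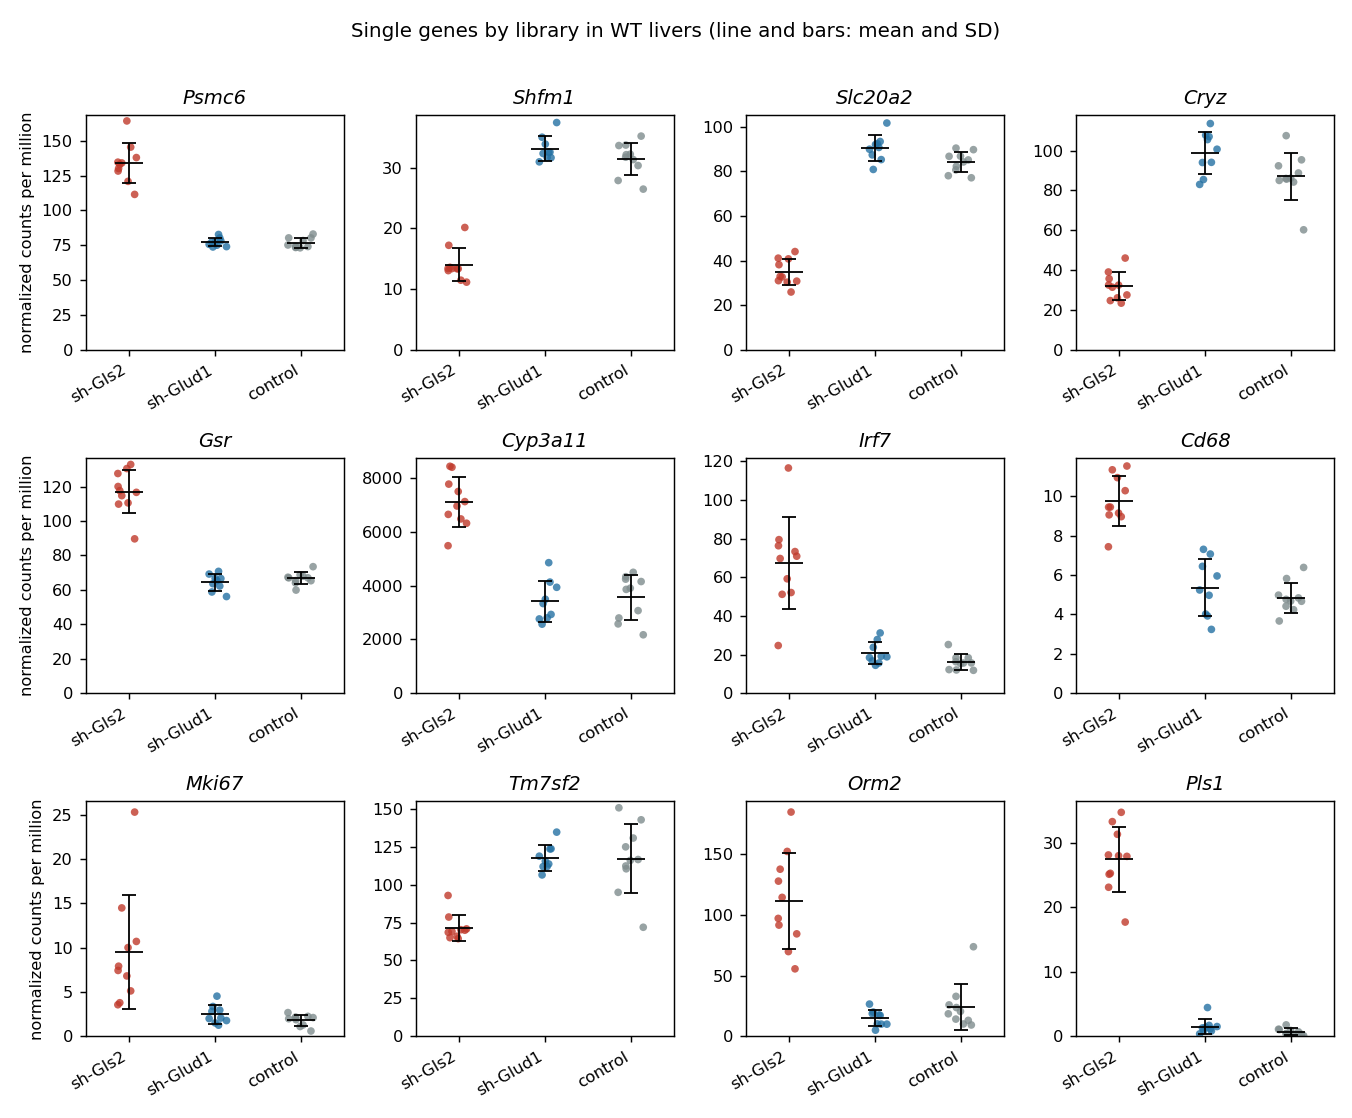
Levels of 12 genes in every WT liver in normalized CPM; points are libraries, and the line and bars are mean and SD of 10 sh-Gls2, 9 sh-Glud1 and 10 control livers. For Psmc6, Shfm1, Slc20a2, Cryz, Gsr, Cyp3a11, Cd68, Tm7sf2, Orm2 and Pls1 the sh-Gls2 and sh-Glud1 livers do not overlap, whereas those of Irf7 and Mki67 overlap.

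Most genes induced by interferon were higher in sh-Gls2 livers. Interferons are the cytokines of antiviral defence. They act through STAT transcription factors on genes whose products sense, bind or degrade foreign RNA. Of 45 interferon-stimulated genes, 35 were called, all of them higher, with a median of 0.75, beside 15.5% and a median of -0.0016 over all genes. Ranges did not overlap for 3 of the 45, beside 3.51% of all genes. Irf7, the transcription factor that amplifies the interferon response, was at 24.7, 70.3 and 117 CPM in sh-Gls2 livers, against 14.4, 18.8 and 31.2 CPM in sh-Glud1 livers (log2 1.71 ± 0.20, adjusted p = 1.63e-09). Its lowest sh-Gls2 liver lay within the sh-Glud1 range. Lgals3bp, a secreted glycoprotein, was at 81.4, 102 and 133 CPM, against 49.4, 55.4 and 72.8 CPM in sh-Glud1 livers (log2 0.83 ± 0.11, adjusted p = 3.19e-08), without overlap. The summed level of the 45 genes was 987 to 2233 CPM in sh-Gls2 livers, 961 to 1408 CPM in sh-Glud1 livers and 790.1 to 1182 CPM in controls, so the sums overlapped.

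The promoters of 3 interferon-stimulated genes are shown, those with the smallest p among members whose RefSeq promoter holds GAAA, any 2 bases and GAAA again, the core of the interferon-stimulated response element. Each runs from 250 bases before to 50 after the start on its own strand (GRCm38.p6), and capitals mark matches on either strand. Ifih1 (chr2:62646206-62646505, minus strand) has 1, Oas1a (chr5:120907476-120907775, minus strand) has 2 that overlap, and Ddx58 (chr4:40239776-40240075, minus strand) has 1.
Ifih1: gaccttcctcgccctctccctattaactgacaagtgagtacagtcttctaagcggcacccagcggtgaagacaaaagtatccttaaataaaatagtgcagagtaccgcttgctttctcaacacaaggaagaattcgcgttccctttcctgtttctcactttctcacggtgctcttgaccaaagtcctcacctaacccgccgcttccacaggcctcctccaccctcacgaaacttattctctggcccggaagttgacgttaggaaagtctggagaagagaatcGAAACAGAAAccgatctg
Oas1a: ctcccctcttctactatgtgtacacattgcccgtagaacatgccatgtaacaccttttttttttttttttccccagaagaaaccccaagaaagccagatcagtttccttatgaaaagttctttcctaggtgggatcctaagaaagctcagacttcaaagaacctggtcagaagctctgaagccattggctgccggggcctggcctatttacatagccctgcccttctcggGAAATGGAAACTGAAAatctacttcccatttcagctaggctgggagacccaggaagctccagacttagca
Ddx58: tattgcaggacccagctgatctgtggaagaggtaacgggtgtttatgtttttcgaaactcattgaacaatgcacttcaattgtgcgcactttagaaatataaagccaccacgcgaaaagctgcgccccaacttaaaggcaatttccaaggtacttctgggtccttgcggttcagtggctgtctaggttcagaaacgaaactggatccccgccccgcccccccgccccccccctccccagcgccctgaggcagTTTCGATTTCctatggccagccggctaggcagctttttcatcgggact
Of 34 listed genes with a promoter entry, 21 held the motif (61.8%), beside 3.19% of the promoters of tested genes and 3.49% of all 27025 promoters. Ifih1 encodes MDA5, the sensor of long double-stranded RNA, and was at 48.7, 71.3 and 87.4 CPM in sh-Gls2 livers, against 37.5, 42.3 and 56.7 CPM in sh-Glud1 livers (log2 0.68 ± 0.10, adjusted p = 7.15e-07). Oas1a, chosen for its promoter after its values were seen, is an oligoadenylate synthetase that switches on the nuclease RNase L upon binding double-stranded RNA. It was at 1.88, 8.83 and 21.05 CPM, against 1.38, 2.05 and 3.48 CPM in sh-Glud1 livers (log2 2.02 ± 0.31, adjusted p = 8.66e-07). Ddx58, chosen in the same way, encodes RIG-I, a sensor of short double-stranded RNA, and differed by 0.54 ± 0.11. Ranges overlapped for all 3.

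Among 18 genes of nucleic acid sensing, 11 were higher and 1 was lower (median 0.38), beside 15.5% and 14.2% of all genes. Of the 11, Ddx58, Ifih1, Dhx58 and Zbp1 were already counted among the interferon-stimulated genes. Zbp1, a sensor of Z-form nucleic acids, was at 6.21, 11.9 and 16.6 CPM in sh-Gls2 livers, against 2.65, 3.48 and 6.62 CPM in sh-Glud1 livers (log2 1.56 ± 0.24, adjusted p = 1.2e-06). The endosomal RNA receptor Tlr7 was higher by 0.91 and the adaptor Tmem173, also called STING, by 0.54. The 1 that was lower was Mavs, the adaptor of RIG-I and MDA5, at -0.34. Of 18 genes of antigen presentation by class I molecules, 12 were higher and 1 lower (median 0.30), beside the same shares. Tapbp, the chaperone that bridges class I molecules to the peptide transporter, was at 81.3, 88.9 and 102 CPM, against 54.5, 64.7 and 72.7 CPM in sh-Glud1 livers (log2 0.51 ± 0.07, adjusted p = 8.33e-08). Psmb10, an interferon-induced core subunit outside the 33 above, differed by 0.47 ± 0.10. The aminopeptidase Erap1 was lower by -0.20.

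Chemokines and cytokines, mostly at low levels, had 8 of 15 called, all higher (median 0.53), beside 15.5% of all genes. Ccl2, which attracts monocytes, was at 0.471, 1.60 and 2.83 CPM in sh-Gls2 livers, against 0.128, 0.498 and 0.884 CPM in sh-Glud1 livers (log2 1.86 ± 0.35, adjusted p = 3.48e-05). Cxcl14 was at 0.573, 3.06 and 7.82 CPM, against 0.149, 0.336 and 0.683 CPM in sh-Glud1 livers (log2 3.24 ± 0.62, adjusted p = 5e-05). The count of 8 fell to 5 without mouse 34 of the sh-Gls2 group, and likewise without mouse 37, 40 or 56 of the sh-Glud1 group.

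Most markers of macrophages and of matrix-forming stellate cells were also higher. Of 25 macrophage markers, 17 were called, all higher (median 0.49), beside 15.5% of all genes. They summed to 272 to 429.7 CPM in sh-Gls2 livers, 185 to 355 CPM in sh-Glud1 livers and 194 to 350.4 CPM in controls, and none of the markers was at 0 throughout a group. Cd68, a lysosomal protein of phagocytes, was at 7.44, 9.45 and 11.5 CPM, against 3.24, 5.24 and 7.31 CPM in sh-Glud1 livers (log2 0.86 ± 0.13, adjusted p = 3.98e-07), without overlap. Trem2, a lipid receptor of macrophages, was at 0.221, 0.426 and 1.51 CPM, against 0, 0.125 and 0.269 CPM in sh-Glud1 livers (log2 2.02 ± 0.48, adjusted p = 0.000881), with overlap. Gpnmb, another macrophage gene of the list, was higher by 3.11. Cd68 was the 1 marker of the 25 without overlap, beside 3.51% of all genes. Among the 8 not called were Clec4f (0.27), Timd4 (0.0048), Marco (0.38), Csf1r (0.26) and Cd163 (-0.43). The part of these markers in the interferon and chemokine differences was not tested.

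Of 21 stellate cell and matrix markers, 13 were called, all higher (median 0.38), beside 15.5% of all genes, and their sum was 445 to 699.8 CPM in sh-Gls2 livers, 413 to 499 CPM in sh-Glud1 livers and 427 to 562 CPM in controls. Reln, a secreted protein of resting stellate cells, differed by 0.67 ± 0.11 (adjusted p = 6.89e-06) and Lum, a matrix proteoglycan, by 0.94 ± 0.16 (adjusted p = 8.59e-06). Their ranges overlapped. The 8 not called lay between -0.20 and 0.38. They included Lrat (0.36), Des (0.26), Pdgfrb (0.38), Acta2 (-0.20) and Tagln (-0.15). The count of 13 fell to 7 without mouse 30, and to 8 without mouse 08 or 36, of the sh-Gls2 group, and to 8 without mouse 57 of the sh-Glud1 group. It was 8 with no filter on low counts and 7 of 20 on log2(TPM + 0.1).

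Bile duct and progenitor markers had 5 of 13 called, all higher (median 0.38), beside 15.5% of all genes. Ggt1, the ectoenzyme that cleaves glutathione and marks ducts and fetal hepatocytes, was at 0.141, 0.533 and 2.14 CPM in sh-Gls2 livers, against 0, 0.0497 and 0.0623 CPM in sh-Glud1 livers (log2 4.04 ± 0.62, adjusted p = 9.06e-07). Krt23 differed by 1.20 ± 0.33 (adjusted p = 0.00401). The duct markers Krt7 (-0.12), Krt19 (0.33), Epcam (0.38) and Sox9 (-0.05) were not called, and Cftr did not pass the filter. Of 20 endothelial markers 2 were called, Vwf (0.37 ± 0.12) and Rspo3 (0.32 ± 0.10), both higher. Of 11 T cell markers above the filter, Cd4 was lower (-1.33 ± 0.34, adjusted p = 0.00197), with 0.461, 1.12 and 1.92 CPM of Cd4 in sh-Gls2 livers and 1.05, 2.39 and 4.78 CPM in sh-Glud1 livers. Mmp9 was the 1 of 5 neutrophil markers called (0.88 ± 0.30, adjusted p = 0.0233), and lost its call without mouse 18 of the sh-Gls2 group (adjusted p = 0.0551) or mouse 15 of the sh-Glud1 group (adjusted p = 0.0558). Defining markers of 2 immune types were at 0 in places: Camp in all sh-Glud1 livers and Tnfrsf17 in all controls.

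Among 18 hepatocyte markers, 2 were called, Alb (0.31 ± 0.10) and Trf (0.27 ± 0.08), the albumin and transferrin genes, both higher. A marker was also called lower without mouse 18, 34 or 45 of the sh-Gls2 group or mouse 37, 40 or 56 of the sh-Glud1 group, 1 in each case. By zone of the lobule, 6 of 22 pericentral markers were called, all higher (median 0.29), beside 15.5% of all genes. Glul, the defining gene of that list, had a difference of -0.50 ± 0.23 and was not called (adjusted p = 0.0888), although its ranges were apart. Also not called were Lgr5 (0.10), Axin2 (0.25), Tbx3 (-0.13), Rnf43 (-0.06), Sp5 (-0.30), Cyp2e1 (0.16) and Cyp1a2 (0.45). Gstm3, among the 6 called, is counted with the NRF2 targets below as well. Of 21 periportal markers 2 were higher and 4 lower (median -0.14), Gls2 itself being 1 of the 4, beside 15.5% and 14.2% of all genes. The 2 periportal markers that were higher were Cdh1 (1.79) and Alb (0.31). Slc13a3, a dicarboxylate importer of the pericentral list, was at 16.2, 26.2 and 35.7 CPM in sh-Gls2 livers, against 7.70, 11.4 and 14.4 CPM in sh-Glud1 livers (log2 1.19 ± 0.19, adjusted p = 2.16e-06), without overlap. Without mouse 08 of the sh-Gls2 group or mouse 32 of the sh-Glud1 group, 2 periportal markers were lower in place of 4.

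NRF2, the transcription factor that answers oxidants and electrophiles, controls glutathione, quinone and drug-conjugating enzymes. Of 31 of its targets 19 were called, all higher, with a median of 0.52, and 11 did not overlap, beside 15.5% called higher and 3.51% not overlapping among all genes. Gsta1, with the largest rise, was at 102, 139.9 and 191 CPM in sh-Gls2 livers, against 2.69, 8.92 and 19.99 CPM in sh-Glud1 livers (log2 3.79 ± 0.39, adjusted p = 2.45e-11). Gsr, glutathione reductase, was at 89.7, 117 and 133 CPM, against 56.1, 65.4 and 70.8 CPM in sh-Glud1 livers (log2 0.86 ± 0.08, adjusted p = 7.97e-13). Neither overlapped. The cystine importer Slc7a11 was higher by 1.82, the exporter Abcc4 by 2.20, and Nqo1, the standard quinone reductase of this response, by 1.07. Gsta and Gstm genes are close copies that counting can split.

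Of 31 drug metabolism genes 7 were called, all higher (median 0.22), beside 15.5% of all genes. Cyp3a11, a major drug-oxidizing cytochrome, was at 5492, 7053 and 8451 CPM in sh-Gls2 livers, against 2570.2, 3338 and 4861 CPM in sh-Glud1 livers (log2 1.06 ± 0.12, adjusted p = 1.07e-09). Cyp3a16, a near copy, differed by 1.26 ± 0.14. Ranges of both were apart. Fitted on the 19 libraries alone, 12 of 30 were higher and 2 lower.

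Around the silenced enzymes themselves, genes of nitrogen handling were called about as often as all genes (29.6%). Of 24 genes of glutamine, glutamate and ammonia handling that passed the filter, 3 were higher and 4 lower, counting Glud1 and Gls2, and the other 17 lay between -0.50 and 0.52. Slc38a5 was left out by the filter. Glul, glutamine synthetase of the pericentral rim, was at 265, 479.7 and 564 CPM in sh-Gls2 livers, against 565, 633 and 711 CPM in sh-Glud1 livers. Its ranges were apart by a narrow gap, yet it was not called in the fit of all 55 libraries (log2 -0.50 ± 0.23, adjusted p = 0.0888), and it was in the fit of the 19 alone (-0.49, adjusted p = 0.00221).

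Of the other 5 that were called, 4 were transporters. Rhbg, an ammonia channel, was at 9.59, 14.3 and 16.5 CPM in sh-Gls2 livers, against 4.22, 5.51 and 8.99 CPM in sh-Glud1 livers (log2 1.16 ± 0.17, adjusted p = 3.4e-07), without overlap. Slc7a5, an exchanger of large neutral amino acids for glutamine, differed by 1.20 ± 0.21 (adjusted p = 1.01e-05). Slc38a4, an importer of amino acids, was lower by -0.41 ± 0.10 and Slc25a13, the mitochondrial aspartate-glutamate carrier, by -0.31 ± 0.08. Got2, mitochondrial aspartate aminotransferase, had a small decrease (-0.14 ± 0.05, adjusted p = 0.0174).

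In the urea cycle, 2 of 8 genes were called, both lower, with a median of -0.20, beside 14.2% of all genes. These were Slc25a13 and Ass1, argininosuccinate synthase, which was at 3096, 3713 and 4295 CPM in sh-Gls2 livers, against 3726, 4661 and 5892 CPM in sh-Glud1 livers (log2 -0.34 ± 0.12, adjusted p = 0.0339). Ass1 lost its call without mouse 08, 14 or 78 of the sh-Gls2 group or mouse 32 or 57 of the sh-Glud1 group (adjusted p 0.0507 to 0.0778). Cps1, the ammonia-fixing first step, was at 5070.1 ± 694 CPM in sh-Gls2 livers and 5779 ± 696 CPM in sh-Glud1 livers (SD, n = 10 and 9) and did not pass (log2 -0.19 ± 0.12, adjusted p = 0.24). The 6 genes not called lay between -0.27 and -0.08.

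Of 56 enzymes that break down amino acids, 13 were lower and 4 higher, with a median of -0.12, beside 14.2% and 15.5% of all genes. Mut, methylmalonyl-CoA mutase, was at 149, 159 and 164 CPM in sh-Gls2 livers, against 201, 217 and 238 CPM in sh-Glud1 livers (log2 -0.47 ± 0.06, adjusted p = 7.2e-09). Ftcd, which passes the formimino group of histidine to folate, was at 318, 363 and 439.6 CPM, against 469, 512 and 569 CPM in sh-Glud1 livers (log2 -0.47 ± 0.07, adjusted p = 8.66e-07). Both were without overlap. Among the 4 that were higher were Oat, ornithine aminotransferase (0.64), and Acmsd of tryptophan breakdown (1.04). Of 25 genes of the TCA cycle and transamination, 6 were lower and 1 was higher (median -0.09), beside the same shares. Sdha, the flavoprotein of succinate dehydrogenase, was lower by -0.31 ± 0.04 (adjusted p = 3.67e-08), without overlap, and the 1 that was higher was Idh2, mitochondrial isocitrate dehydrogenase, by 0.50 ± 0.11 (adjusted p = 0.00055).

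**Figure D5:**
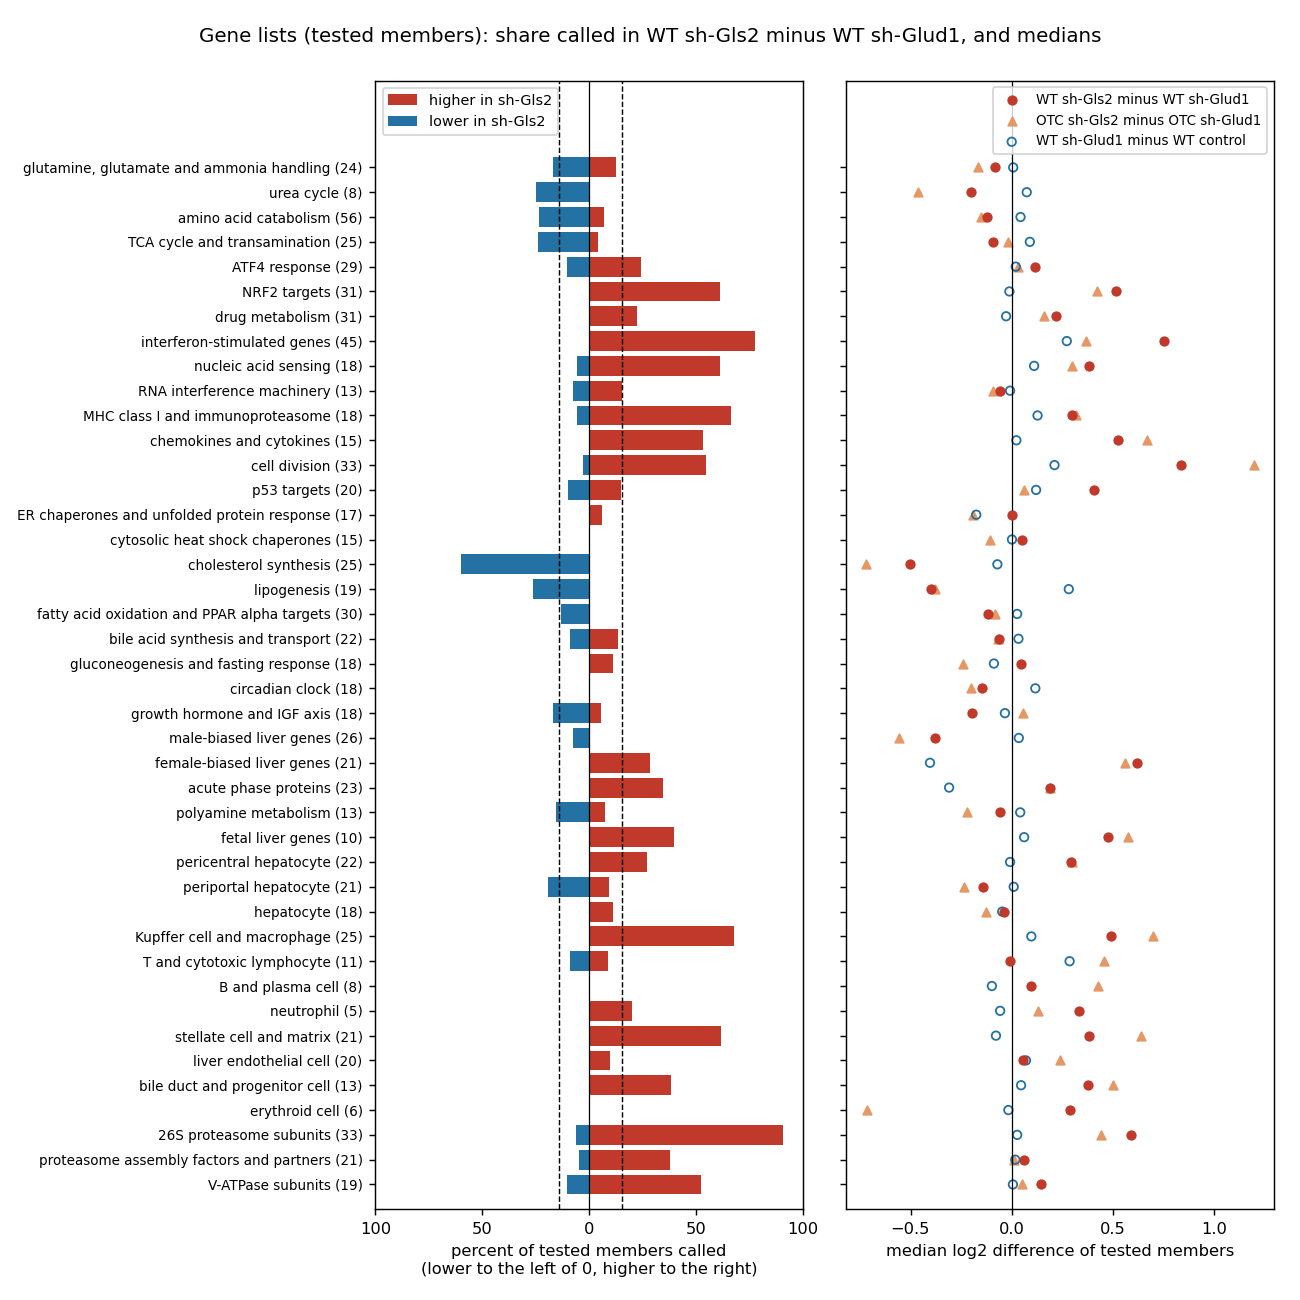
Left, the share of tested members of each gene list called higher (right of 0) or lower (left of 0) in WT sh-Gls2 than in WT sh-Glud1 livers, with the shares over all tested genes (15.5% and 14.2%) as dashed lines and the number tested in brackets; right, median log2 differences of the same members in WT, in OTC and for WT sh-Glud1 minus WT control. Proteasome subunits, interferon-stimulated genes, macrophage markers and NRF2 targets stand far to the right, and cholesterol synthesis far to the left.

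Most genes of cholesterol synthesis were lower. Its enzymes are switched on together by the transcription factor SREBP2 when membrane sterol is low. Of 25 genes 15 were called, all of them lower, with a median of -0.50, beside 14.2% of all genes. Tm7sf2, a sterol reductase, was at 64.4, 69.5 and 92.8 CPM in sh-Gls2 livers, against 106, 115 and 134 CPM in sh-Glud1 livers (log2 -0.72 ± 0.14, adjusted p = 0.000115). Ebp, a sterol isomerase, was at 135, 155 and 176 CPM, against 193, 215 and 235 CPM in sh-Glud1 livers (log2 -0.46 ± 0.07, adjusted p = 2.45e-06). Both groups were apart for each gene. The sum of the list was 2207 to 5235 CPM in sh-Gls2 livers, 3905 to 5115 CPM in sh-Glud1 livers and 3347 to 6600.0 CPM in controls, with overlap.

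Fatty acid synthesis had 5 of 19 genes called, all lower (median -0.40), beside 14.2% of all genes. Srebf1, the gene of its main regulator, was at 121, 189 and 387 CPM in sh-Gls2 livers, against 278, 349 and 437 CPM in sh-Glud1 livers (log2 -0.83 ± 0.20, adjusted p = 0.000853). Agpat2, an acyltransferase of glycerolipid synthesis, differed by -0.44 ± 0.12. The top sh-Gls2 value of Srebf1 came from mouse 45. Without that mouse 10 of the 19 were lower, whereas 3 were without mouse 01, 30 or 79 of the sh-Gls2 group or mouse 15 or 56 of the sh-Glud1 group. Between sh-Glud1 and control livers the median of this list was 0.28.

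Fatty acid oxidation had 4 of 30 genes called, all lower (median -0.12), beside 14.2% of all genes called lower and 15.5% called higher. Acaa2, the mitochondrial thiolase, differed by -0.38 ± 0.06 (adjusted p = 4.03e-07) and Crat, carnitine acetyltransferase, by -0.98 ± 0.18 (adjusted p = 2.27e-05). Without mice 45 and 79, left out together after the data were seen, 7 were lower, and without mouse 15 of the sh-Glud1 group 1 was higher and 3 lower. In bile acid synthesis and transport 3 of 22 were higher and 2 lower, beside the same shares. Abcb4, the phospholipid exporter of bile, was at 269, 319.7 and 409 CPM in sh-Gls2 livers, against 187, 211 and 235 CPM in sh-Glud1 livers (log2 0.59 ± 0.10, adjusted p = 8.51e-06), without overlap. Slc22a7, an organic anion transporter, differed by 1.35 ± 0.32.

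Among genes of cell division, most were higher in sh-Gls2 livers. Of 33, 18 were higher and 1, the replication helicase gene Mcm7, was lower (-0.31), with a median of 0.84, beside 15.5% and 14.2% of all genes. Mki67, the proliferation marker Ki-67, was at 3.58, 7.68 and 25.3 CPM in sh-Gls2 livers, against 1.27, 2.08 and 4.55 CPM in sh-Glud1 livers (log2 1.93 ± 0.34, adjusted p = 1.19e-05). Cdc20, an activator of the anaphase-promoting complex, was at 1.15, 2.35 and 8.38 CPM, against 0.202, 0.340 and 1.25 CPM in sh-Glud1 livers (log2 2.55 ± 0.45, adjusted p = 1.39e-05). Ranges overlapped, and mouse 79 had the highest level of both. Mcm7 lost its call without mouse 18 of the sh-Gls2 group. On TPM only 14 of the genes passed the minimum, 3 of them were called higher, and the median was 0.17 with a pseudocount of 1 and 0.24 with 0.1.

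Of 29 genes of the ATF4 response to amino acid shortage, 7 were higher and 3 lower (median 0.11), beside 29.6% of all genes called in either direction. Gdf15, a hormone of cell stress, was at 12.8, 23.1 and 37.7 CPM in sh-Gls2 livers, against 2.96, 7.80 and 14.7 CPM in sh-Glud1 livers (log2 1.49 ± 0.34, adjusted p = 0.000603). Slc7a1, an arginine importer, differed by 0.86 ± 0.16 (adjusted p = 3.19e-05). Among p53 targets, 20 were tested, with 3 higher and 2 lower (median 0.41), beside 15.5% and 14.2%. Those higher were Gdf15, Sesn2 (0.64) and Polk (0.47). At an unadjusted p below 0.05 in edgeR, 11 were higher and 2 lower, beside 2719 and 2597 of all 13311 genes. Ei24, a membrane protein of the endoplasmic reticulum, was lower by -0.40 ± 0.08 (adjusted p = 4.83e-05). In the fit of the 19 libraries 10 were higher. The count was 5 or 6 without mouse 36 of the sh-Gls2 group or mouse 15, 17 or 56 of the sh-Glud1 group, and 1 target was lower without mouse 01 or 18 of the sh-Gls2 group or mouse 15 or 69 of the sh-Glud1 group. Of 17 endoplasmic reticulum chaperones only Dnajb9 was called (0.65 ± 0.19, adjusted p = 0.0061).

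In 4 lists edgeR called no gene. Of 15 cytosolic heat shock chaperones 3 had an unadjusted p below 0.05, all higher, and DESeq2 called 1. Without mouse 79 of the sh-Gls2 group edgeR called 3 of them, and 1 without mouse 08, 30 or 34 of that group or mouse 32 or 37 of the sh-Glud1 group. Of 18 circadian clock genes and of 8 B and plasma cell markers none had an unadjusted p below 0.05, and DESeq2 called none. Of 6 erythroid markers 1 had an unadjusted p below 0.05, lower, DESeq2 called none, and edgeR called 1 without mouse 34 of the sh-Gls2 group.

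Acute phase proteins, made by hepatocytes under cytokine control, had 8 of 23 called, all higher, and 7 of them did not overlap, beside 15.5% called higher and 3.51% not overlapping among all genes. Orm2, an orosomucoid, was at 55.6, 106 and 184 CPM in sh-Gls2 livers, against 5.15, 17.3 and 26.6 CPM in sh-Glud1 livers (log2 2.88 ± 0.36, adjusted p = 1.09e-08). Hpx, hemopexin, was at 4005, 4362 and 4967 CPM, against 2379, 2777 and 3278 CPM in sh-Glud1 livers (log2 0.69 ± 0.11, adjusted p = 1.29e-06). The median of the list was 0.19. Against control livers, sh-Gls2 livers had 5 genes of the list higher and 7 lower, with a median of -0.12, beside 17.6% and 17.2% of all genes. Against the same controls, the median in sh-Glud1 livers was -0.31. Fetal liver genes had 4 of 10 called, all higher, beside 15.5% of all genes, with Peg3, an imprinted gene, at 5.71, 8.62 and 11.04 CPM in sh-Gls2 livers and 1.74, 2.87 and 3.98 CPM in sh-Glud1 livers (log2 1.58 ± 0.26, adjusted p = 2.69e-06). Ly6d is a surface marker of the same list and differed by 2.70 ± 0.58, with 1 liver in each group, mice 45 and 56, far above the rest.

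Some genes of the liver are sex-biased, set by the rhythm of growth hormone. Of 26 male-biased genes the 2 called were the lower Mup16 and Mup17, beside 14.2% of all genes. Of 21 female-biased genes 6 were called, all higher (median 0.62), beside 15.5% of all genes, and 4 of the 6 are Cyp3a near copies. Against control livers, sh-Gls2 livers had 4 genes of this list higher and 2 lower (median 0.12), beside 17.6% and 17.2% of all genes. Against the same controls, the median in sh-Glud1 livers was -0.40, with 0 called. Cyp3a41b, female-biased and a near copy of other Cyp3a genes, was at 2.07, 3.36 and 4.78 CPM in sh-Gls2 livers, against 1.18, 1.75 and 2.09 CPM in sh-Glud1 livers (log2 1.05 ± 0.15, adjusted p = 3.96e-07). Fitted on the 19 libraries alone, 8 of 25 male-biased genes were lower, and without mouse 32 of the sh-Glud1 group 1 was higher. In the growth hormone and IGF axis 3 of 18 were lower and 1 higher, beside 14.2% and 15.5%. Igfals, which keeps IGF-1 in the blood, was lower by -0.46 ± 0.13 (adjusted p = 0.00377). The 3 became 1 without mouse 08 or 79 of the sh-Gls2 group or mouse 40 or 69 of the sh-Glud1 group.

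Igfbp1, an insulin-suppressed binding protein for IGF, was at 12.3, 33.01 and 72.2 CPM in sh-Gls2 livers, against 4.58, 9.98 and 14.6 CPM in sh-Glud1 livers (log2 1.91 ± 0.60, adjusted p = 0.0118). It and Fkbp5, a glucocorticoid target (1.10 ± 0.40, adjusted p = 0.0314), were the 2 of 18 fasting genes called. Fkbp5 lost its call without mouse 37 or 70 of the sh-Glud1 group (adjusted p = 0.0546 and 0.0529), and without mice 45 and 79 together (0.0624). The fasting count of 2 fell to 1 without mouse 37 or mouse 70, and members were called lower without mouse 30, 34 or 45 of the sh-Gls2 group or mouse 37, 57 or 70 of the sh-Glud1 group (1 to 3 members). In polyamine metabolism 1 of 13 was higher, Smox, spermine oxidase (0.70 ± 0.16), and 2 were lower. Of these Oaz1, the antizyme that sends ornithine decarboxylase to the proteasome, was at 150.5, 168 and 186 CPM, against 230.4, 239 and 259 CPM in sh-Glud1 livers (log2 -0.53 ± 0.06, adjusted p = 1.92e-10), without overlap.

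Of 13 genes of the machinery that hairpins use, 3 were called, beside 29.6% of all genes. Prkra, a double-stranded RNA binder that partners Dicer, was lower, at 9.96, 10.8 and 12.8 CPM in sh-Gls2 livers, against 12.9, 15.4 and 17.7 CPM in sh-Glud1 livers (log2 -0.46 ± 0.08, adjusted p = 1.25e-05), without overlap. Tarbp2, the other such partner, was higher by 0.19 ± 0.07 (adjusted p = 0.0306), and Tnrc6a, the scaffold bound by Argonaute, by 0.18 ± 0.07 (adjusted p = 0.035). The other 10 lay between -0.16 and 0.07, among them Dicer1, Drosha, Xpo5 and the Argonaute genes. Tarbp2 lost its call without mouse 14 or 34 of the sh-Gls2 group or mouse 32, 40 or 57 of the sh-Glud1 group, and Tnrc6a without mouse 01, 30, 36, 78 or 79 of the sh-Gls2 group or mouse 15, 32, 40 or 56 of the sh-Glud1 group. Neither was called with no filter on low counts or with mouse number as a covariate, and the fit of the 19 libraries had 4 lower genes in place of 1.

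The same 2 hairpins were compared in OTC livers, 10 sh-Gls2 against 8 sh-Glud1, where 5395 genes were called (40.5%), 2593 higher (19.5%) and 2802 lower (21.1%). Gls2 differed there by -1.13 ± 0.10 and Glud1 by 1.25 ± 0.13. Proteasome subunits gave 30 higher and 2 lower (median 0.44), with Psmc6 at 0.70 ± 0.05 and Shfm1 at -1.37 ± 0.08. Slc20a2 differed by -1.33 ± 0.07 and Cryz by -1.22 ± 0.09. Interferon-stimulated genes gave 20 higher and 1 lower (median 0.37), cholesterol genes 22 lower (median -0.72), NRF2 targets 16 higher and 1 lower (median 0.42) and urea cycle genes 1 higher and 7 lower (median -0.46). In OTC livers eGFP differed by -1.04 ± 0.31 (adjusted p = 0.00558).

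The difference between the strains, tested as an interaction, was called for 54 genes (0.406%), 40 with a larger value in WT and 14 with a smaller one. None of the proteasome subunits, and 1 of the 45 interferon-stimulated genes, was among them. That 1 was Usp18, the deconjugase of ISG15, chosen after its values were seen, with a log2 difference of 1.20 ± 0.22 in WT and -0.04 ± 0.21 in OTC livers (adjusted p of the interaction = 0.0387). Pfn2 differed by 3.31 in WT and 1.99 in OTC livers. The glycolytic enzyme gene Aldoa differed by 0.76 in WT livers (adjusted p = 7.24e-11) and 0.18 in OTC livers (adjusted p = 0.075). Rpl3, a ribosomal protein, had -0.18 in WT (adjusted p = 0.109) and -0.79 in OTC livers. Impdh2, of guanine nucleotide synthesis, had -0.26 in WT and -0.78 in OTC livers, and Nlrp6, an innate sensor, -0.70 in WT and -1.31 in OTC livers.

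Values smaller in WT were led by Cyp2a12, a cytochrome (0.28 in WT, 0.96 in OTC), Rnf44 (-0.04 in WT, 0.24 in OTC), Rhbg (1.16 in WT, 2.35 in OTC), Ces2c, a carboxylesterase (0.92 in WT, 2.54 in OTC) and ND4L, a mitochondrially encoded subunit of respiratory complex I (0.15 in WT, 0.67 in OTC). All 5 had an adjusted p of the interaction below 0.05, the largest being 0.0211. Rhbg and Ces2c were called in both strains, and the difference is one of size. Cyp2a12 was also called in WT livers, and its difference had the same sign in OTC livers.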

How the data were processed

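Messenger RNA of mouse livers was made into strand-specific libraries amplified by PCR, per the labels' protocols. Per the submitters' processing notes, CASAVA 1.8.2 and FastQC were used with the GRCm38 build. The aligner, the counter and its strand setting are not given in the sources used here. The authors deposited a table of raw read counts per gene symbol and a table of TPM, which are scaled for transcript length and depth. The TPM values were used for 2 alternatives only. No molecular identifiers are named in the protocol, so precision by depth covers counting error only.

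Of 24475 symbols, 4775 had no count. Genes were kept by edgeR 4.0.16 (filterByExpr, minimum count 10, minimum total 15), which left 13311, and scaled by TMM. All 55 libraries were fitted with 6 group terms and tested by edgeR's quasi-likelihood F test with Benjamini-Hochberg adjustment, called at an adjusted p below 0.05. The standard error is the log2 difference over the root of F. Relations across livers were tested with 100000 permutations, or exactly for 9 livers. R 4.3.3, limma 3.58.1, DESeq2 1.42.0, Python 3.11.15 and scipy 1.17.1 were used. The fit was also run on counts simulated with known changes. These were drawn from the fitted means and spread, so that run checks the code and not the calls made here. Positions came from GENCODE M21 (23384 symbols matched) and promoters from RefSeq (GRCm38.p6).

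Named genes were both targets and Otc, the 8 highest and the 8 lowest (mean log2 CPM from 1 upward), and the 8 smallest p in each direction. The picks by smallest p had no minimum level. Predicted or numbered symbols were left out of these. Also named were 2 per gene list, members of 3 lists on nitrogen and RNA interference, and 5 per direction for the strain difference. The members, lists and genes were chosen with earlier results of these data known. Genes named in a list only by their value beside a count, eGFP, Gm3219, Zdhhc6, Usp18, Oas1a and Ddx58, Psma3, Psmb5, Psmd14 and Adrm1, and the families of proteasome and proton pump genes were chosen after their values were seen. Results for some genes are not reported here. Alternatives were DESeq2's size factors and test, other filters, the 19 libraries alone, mouse number as a covariate, limma on log2(TPM + 1) and log2(TPM + 0.1) with a mean of at least 1 TPM, and leaving out each library.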

Additional observations from a re-analysis of the deposited data

Results flagged for a closer look

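Among 234 sets of levels, 1 for each of 117 genes in the 10 WT sh-Gls2 and in the 9 WT sh-Glud1 libraries, 1 library stood apart from the rest in 19 sets. For normally distributed values chance gives about 1 in 20. The levels were CPM without a log scale, so that rate need not hold here. In all these sets but that of Gsr the library was the highest. Mouse 45 of the WT sh-Gls2 group was the highest of its group for Mup17 (114 CPM), Pnpla3 (20.3 CPM), Tm7sf2 (92.8 CPM), Srebf1 (387 CPM) and Ly6d (28.8 CPM). Mouse 79 of the same group was the highest for Mup5 (23.5 CPM), Mki67 (25.3 CPM) and Cdc20 (8.38 CPM) and the lowest for Gsr (89.7 CPM). Mouse 08 was the highest for Rpn2 (118 CPM) and Oas1a (21.1 CPM), mouse 01 for Psmd3 (66.4 CPM) and mouse 36 for Trem2 (1.51 CPM). In the WT sh-Glud1 group, mouse 56 was the highest for Pls1 (4.48 CPM), Ly6d (6.23 CPM) and Cdc20 (1.25 CPM). There, mouse 37 was the highest for C4a (395 CPM), mouse 70 for Cxcl14 (0.683 CPM) and mouse 32 for Ftcd (569 CPM).

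The difference between the hairpins itself differed between the strains for 15 of the named genes, tested as an interaction in edgeR. Values are the log2 difference in WT minus that in OTC livers. It was positive for Pfn2 (1.33), Impdh2 (0.52), Nlrp6 (0.61), Aldoa (0.58) and Rpl3 (0.61), all at an adjusted p of 0.00953. It was also positive for Mtmr11 (1.43, adjusted p = 0.0487), Mllt11 (1.04, adjusted p = 0.0293), Usp18 (1.24, adjusted p = 0.0387), Cyp3a16 (0.88, adjusted p = 0.025) and Zdhhc6 (0.25, adjusted p = 0.0259). It was negative for Cyp2a12 (-0.68, adjusted p = 0.00953), Rnf44 (-0.28, adjusted p = 0.015), Rhbg (-1.19, adjusted p = 0.0185), Ces2c (-1.62, adjusted p = 0.0186) and ND4L (-0.52, adjusted p = 0.0211).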

How the results depend on the processing

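Over 9 alternatives, the genes called in WT sh-Gls2 minus WT sh-Glud1 numbered 1681 to 2388 higher and 1525 to 2305 lower. Leaving out each library in turn gave 1864 to 2134 higher and 1759 to 1893 lower. The proteasome kept 30 higher and 2 lower subunits in each of these fits. The strain difference moved: its 54 genes became 27 with no filter on low counts (19 higher and 8 lower) and 99 with DESeq2's Wald test (61 higher and 38 lower), and the cause was not tested. Of 117 genes printed with their own test, 12 changed their call under at least 1 of 28 settings and 0 changed direction. Besides those given above, Zdhhc6 was called without mouse 78 of the sh-Gls2 group (adjusted p = 0.0496) or mouse 37 of the sh-Glud1 group (0.0333), and Rpl3 and ND4L in the fit of the 19 libraries (0.0112 and 0.0235, edgeR). On log2(TPM + 1) and log2(TPM + 0.1) the median of cell division genes was 0.17 and 0.24, and that of T cell markers 0.40 and 0.59, where fewer members were tested. In the fit of the 19 libraries, called members moved for TCA cycle genes (2 higher and 9 lower), bile acid genes (3 and 4), polyamine genes (1 and 4), fasting genes (5 and 4), the IGF axis (1 and 5), acute phase genes (9 and 2), endoplasmic reticulum chaperones (2 and 1), heat shock chaperones (3 and 1) and pericentral markers (11 and 1). ATF4 genes had 5 higher and 1 lower on both TPM scales, and the IGF axis had 1 and 1 there, as with no filter. DESeq2 called 4 higher and 1 lower fasting genes, and mouse number as a covariate gave 2 lower clock genes. No paired analysis was possible because each mouse number belongs to 1 mouse. Differences of genes below about 1 CPM rest on few counts.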
